A study of Mus musculus with 6 samples.

Results

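The genes described here are 9 genes of lipid uptake, storage and efflux, chosen by name from the 41386 genes of a mouse hippocampus RNA-seq table. They are the scavenger receptors Msr1, Cd36 and Olr1, the storage genes Plin2 and Soat1, the lysosomal cholesterol carrier Npc2, the oxysterol enzyme Ch25h, and the efflux transporters Abca1 and Abcg1. All 9 were found, each on 1 row. RNA came from the hippocampus of male wild type C57BL/6 mice (C57BL/6J in the study's methods) aged 56 days. In the I/R group the left middle cerebral artery was blocked with a filament for 1.5 h and blood flow was then restored for 24 h, and the sham group was operated on without the filament. Each group had 3 libraries. Per the study's methods 3 ipsilateral hippocampi were pooled for each library, so the spread between libraries is one between pools and not between single animals.

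Cells take up modified lipoproteins and lipid-rich debris through scavenger receptors, of which Msr1 and Cd36 are best known from macrophages. Cholesterol freed in the lysosome is passed on by Npc2 and Npc1. It is then either esterified by Soat1 and stored in droplets coated by Plin2, or exported by Abca1 and Abcg1 to apolipoprotein particles. Oxysterols, such as the 25-hydroxycholesterol made by Ch25h, activate the nuclear receptors LXRα (Nr1h3) and LXRβ (Nr1h2), which are known to turn on Abca1 and Abcg1. Brain phagocytes that clear myelin debris take up a large load of cholesterol.

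Total counts were 37527226 to 39553637 in the I/R libraries and 37493042 to 44788547 in the sham libraries. Levels are given as CPM, read counts relative to the library size after scaling by TMM, edgeR's factor that centres most genes. Markers of hippocampal neurons were present in every library and summed to 854 to 904 CPM in sham and 208 to 481 CPM in I/R. Of 10 tested markers of monocytes and macrophages 9 rose and 0 fell, and their sum was 107 to 119 CPM in sham and 203 to 368 CPM in I/R. Most of that sum was the 1 gene Fn1, at 95.2 ± 4.23 CPM in sham and 193 ± 64.5 CPM in I/R. Of 9 microglial markers 3 rose and 4 fell, with sums of 278 to 315 CPM in sham and 318 to 465 CPM in I/R. Of 6 tested neutrophil markers 4 rose, with sums of 5.70 to 7.20 CPM in sham and 12.3 to 43.6 CPM in I/R, and Cxcr2, Ngp and Camp were at 3 counts or fewer in every sham library. Of 7 neuron markers 6 fell, with sums of 6841 to 7173 CPM in sham and 2024 to 3926 CPM in I/R. I/R replicate 1 had the highest monocyte, neutrophil and microglial sums and the lowest neuronal sums. Fewer cells of a type and less RNA per cell cannot be told apart in bulk tissue, and the part of cell composition in the results on the lipid genes was not tested.

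In the comparison of I/R with sham, Msr1, Plin2, Ch25h, Cd36 and Abca1 rose, with fitted changes from 0.65 (Abca1) to 8.64 (Msr1) on the log2 scale. Soat1, Npc2 and Abcg1 did not pass the test, and Olr1 had too few reads to be tested. A gene was called at an adjusted p under 0.05 (edgeR's quasi-likelihood test) and a fold change over 1.2. Thus 5 of the 8 tested genes were called, all higher in I/R, beside 41.8% of all 18569 tested genes called in either direction and 21.8% called higher (19.9% were called lower). The median log2 fold change of the 8 genes was 1.38, against 0.03 for all tested genes. The I/R and sham libraries did not overlap in 6 of the 8, and in 57.4% of all tested genes. At a fold change over 2, 4 of the 8 were called, beside 14.9% of all tested genes. An exact permutation test of 3 libraries against 3 cannot give a p below 0.1.

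**Figure D1:**
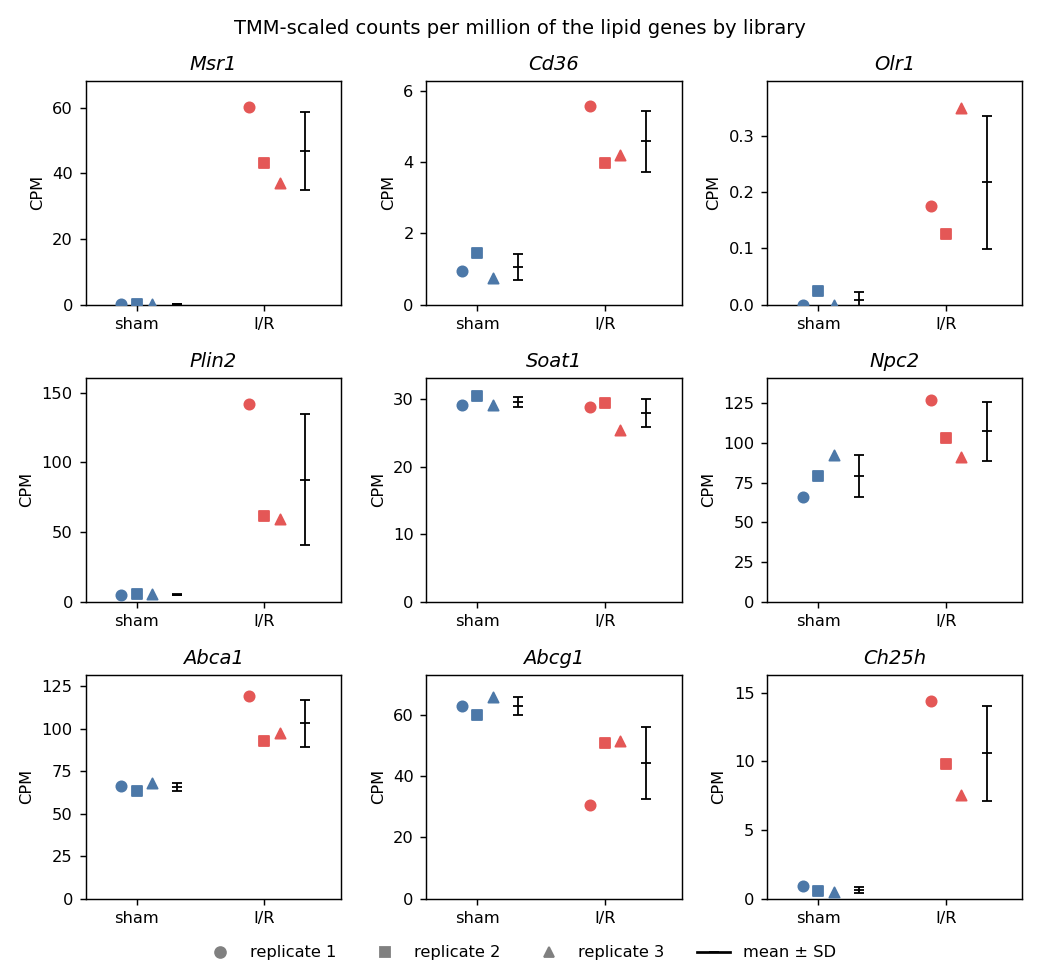
TMM-scaled CPM (read counts relative to library size, vertical axes starting at 0) of the 9 lipid genes in 3 sham and 3 I/R libraries; symbols are replicates and bars are mean ± SD. Every I/R library lay above every sham library for Msr1, Cd36, Olr1, Plin2, Abca1 and Ch25h and below for Abcg1, and the groups overlapped for Soat1 and Npc2.

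The promoters of 4 of these genes are shown as examples: Ch25h and Plin2 rose strongly, Abca1 rose less, and Soat1 did not pass the test. These 4 were chosen after the values were seen. The sequences are the 250 bases before the gene start in RefSeq (build GRCm38.p6), written 5′ to 3′ along the gene's strand, with motif matches in capitals.
Ch25h, chr19:34475149-34475398, minus strand: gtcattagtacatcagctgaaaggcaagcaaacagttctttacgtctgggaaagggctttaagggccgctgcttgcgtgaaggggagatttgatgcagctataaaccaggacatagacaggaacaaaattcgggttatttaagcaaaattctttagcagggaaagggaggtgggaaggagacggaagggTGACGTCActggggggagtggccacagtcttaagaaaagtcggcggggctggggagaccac
Plin2, chr4:86670060-86670309, minus strand: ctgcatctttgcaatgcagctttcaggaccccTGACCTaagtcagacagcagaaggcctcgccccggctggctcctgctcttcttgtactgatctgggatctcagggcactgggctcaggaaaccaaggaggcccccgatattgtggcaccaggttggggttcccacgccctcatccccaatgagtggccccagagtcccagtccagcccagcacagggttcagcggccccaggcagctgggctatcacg
Abca1, chr4:53159896-53160145, minus strand: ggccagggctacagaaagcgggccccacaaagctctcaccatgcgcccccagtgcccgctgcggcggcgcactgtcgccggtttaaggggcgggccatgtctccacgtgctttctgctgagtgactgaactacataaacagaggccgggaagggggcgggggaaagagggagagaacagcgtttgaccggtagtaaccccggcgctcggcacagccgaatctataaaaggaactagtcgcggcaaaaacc
Soat1, chr1:156474329-156474578, minus strand: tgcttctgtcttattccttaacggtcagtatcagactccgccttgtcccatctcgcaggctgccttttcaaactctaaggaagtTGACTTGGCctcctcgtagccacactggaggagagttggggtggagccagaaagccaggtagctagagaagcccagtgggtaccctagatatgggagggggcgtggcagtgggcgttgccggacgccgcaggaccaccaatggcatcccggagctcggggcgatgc

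Of the 9 genes 7 had a promoter entry, and Abcg1 and Msr1 had none. Both strands were searched for 6 motifs. The cyclic AMP response element (CRE, TGACGTCA) stood 61 bases before the start of Ch25h, and 1.55% of all 32807 promoters of this length held it. The antioxidant response element (TGACNNNGC, in 10.2% of promoters) matched once in Soat1, 166 bases before the start. The nuclear receptor hexamer AGGTCA (14.0% of promoters), which also forms the repeat named last, was on the reverse strand of Plin2, 218 bases before the start, and of Cd36, 228 bases before it. For Cd36 alone the bases after the start were not found in an annotated transcript of the gene, so that position is less sure. Olr1 held the same hexamer 175 bases and the AP-1 site TGANTCA (6.75% of promoters) 60 bases before its start. None of the 7 promoters held the PU.1 core GAGGAAGT (2.44% of promoters) or the direct repeat of that hexamer with 4 bases between (DR4, 0.0152%), and neither Abca1 nor Npc2 held any of the 6 motifs. GC content was 61.6% in Plin2 and in Abca1, 50.4% in Ch25h and 58.8% in Soat1, against a median of 52.4% over all promoters. A match is a description of letters and not a measured binding site. Only exact matches were counted, and the exact DR4 repeat was in just 5 of 32807 promoters. A miss therefore does not show that a promoter lacks such a site, since variants of the letters were not searched.

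Among the uptake receptors, Msr1 and Cd36 rose and Olr1 was detected mainly in I/R. Msr1 (MGP_BALBcJ_G0033525, chr8:36990919-37053540 on the BALB/cJ assembly) encodes the class A scavenger receptor of macrophages. It had 2732, 1720 and 1485 reads after I/R (replicates 1, 2 and 3, in that order throughout) against 9, 3 and 1 after sham surgery. All I/R libraries were far above all sham libraries, 2 of which were at or under the floor of 3 counts. Its level was 46.7 ± 11.9 CPM after I/R against 0.111 ± 0.106 CPM in the sham group (SD, n = 3). The fitted log2 difference was 8.64 (SE 0.40, adjusted p = 7.57e-05 by edgeR), at percentile 99.9 of all tested genes. With so few sham reads the size is loose: the ratio of the pooled counts was 415 with an exact interval, for counting error only, of 243 to 780. Without sham replicate 1 the log2 fold change was 9.69, and with log2(FPKM + 1) it was 4.33.

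Cd36 (MGP_BALBcJ_G0029283, chr5:15141158-15253748) encodes a class B scavenger receptor that also takes up long-chain fatty acids. It had 253, 159 and 168 reads after I/R against 37, 59 and 26 after sham surgery. The lowest I/R library was above the highest sham library. The means were 4.58 ± 0.856 CPM after I/R against 1.05 ± 0.360 CPM in the sham group (SD, n = 3), and the fitted log2 difference was 2.11 (SE 0.30, adjusted p = 0.00158 by edgeR). On the log2(FPKM + 1) scale, which shrinks low genes, it was 1.11. Olr1 (MGP_BALBcJ_G0031327, chr6:127703786-127725772) encodes LOX-1, a receptor for oxidised LDL on endothelium and macrophages. It had 8, 5 and 14 reads after I/R against 0, 1 and 0 after sham surgery. All sham libraries were under the floor of 3 counts, and the gene failed the count filter. The pooled counts, 27 against 1, gave a ratio of 24.6 with an exact interval of 4.05 to 1005. With no count filter the fit gave a log2 fold change of 4.203 (edgeR adjusted p = 0.0320).

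Within each I/R library the count of Msr1 was 10.8, 10.8 and 8.84 times that of Cd36, and within the sham libraries 0.243, 0.0509 and 0.0385 times. The balance of reads between these receptors thus lay on opposite sides of 1 in the 2 groups. Beside these receptors, 9 of 10 tested monocyte and macrophage markers rose. Of 8 endothelial markers 6 rose and 1 fell, with sums of 278.6 to 281.4 CPM in sham and 380 to 587 CPM in I/R, and I/R replicate 1 was again the highest. The part of either cell type in the receptor levels was not tested. The genes whose profiles over the 6 libraries were nearest to Msr1 were Timp1 (distance 0.678 on the log2 scale) and Spp1 (0.856), and to Cd36 they were Pycard (0.190) and Casp1 (0.266).

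In the storage genes, Plin2 rose and Soat1 did not pass the test. Plin2 (MGP_BALBcJ_G0028394, chr4:83603210-83644203) encodes perilipin 2, a coat protein of lipid droplets. It had 6450, 2452 and 2377 reads after I/R against 175, 212 and 185 after sham surgery. The sham libraries lay close together, while I/R replicate 1 was 2.35 times the mean of the other 2 I/R libraries in CPM, the widest such gap among the 9 genes. That library also had the highest monocyte and macrophage marker sum, 368 CPM beside 203 and 221 CPM, whose part in the result was not tested. Most of that sum was Fn1, at 267 CPM beside 147.4 and 165.5 CPM. The means were 87.5 ± 47.0 CPM after I/R against 5.03 ± 0.477 CPM in the sham group (SD, n = 3), and the fitted log2 difference was 4.12 (SE 0.37, adjusted p = 0.000375 by edgeR). The fitted value fell to 3.59 with I/R replicate 1 left out, and the call held. Of the 50-base stretches of Plin2 transcripts, 2.57% also occur in transcripts of Gm12551, so a few reads could be lost to or shared with that copy. The nearest profiles were those of Cyr61 (distance 0.307) and Itga5 (0.398).

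Soat1 (MGP_BALBcJ_G0016566, chr1:155389365-155439343) encodes the enzyme that esterifies cholesterol for storage. It had 1314, 1175 and 1020 reads after I/R against 1137, 1237 and 1002 after sham surgery. The groups overlapped, with 27.9 ± 2.11 CPM after I/R against 29.6 ± 0.759 CPM in the sham group (SD, n = 3). The fitted log2 difference was −0.08 (SE 0.10, edgeR adjusted p = 0.520), with an approximate 95% interval of −0.27 to 0.10. The difference turned positive, to 0.18, when libraries were scaled by size only. The difference was within the spread between libraries, and the interval leaves room for a small change either way. The count of Soat1 was 6.50, 5.84 and 5.42 times that of Plin2 after sham surgery against 0.204, 0.479 and 0.429 times after I/R, so Soat1 had more reads than Plin2 in all sham libraries and fewer in all I/R libraries. The nearest profiles to Soat1 were those of Nif3l1 (distance 0.070) and Nub1 (0.073).

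Npc2 (MGP_BALBcJ_G0019881, chr12:82583284-82601806), which carries cholesterol to Npc1 inside the lysosome, had 5803, 4126 and 3655 reads after I/R against 2570, 3211 and 3184 after sham surgery. In CPM the lowest I/R library (91.4) was under the highest sham library (92.5), so the groups overlapped. The means were 107 ± 18.4 CPM after I/R against 79.1 ± 13.4 CPM in the sham group (SD, n = 3), and the fitted log2 difference of 0.44 (SE 0.16) missed the threshold (adjusted p = 0.0553 by edgeR). The side of the threshold depended on the setting. Npc2 was called higher with library size only (log2 fold change 0.70, adjusted p = 0.0130), with the DESeq2 Wald test (adjusted p = 0.0392), on both FPKM scales, without I/R replicate 3 (adjusted p = 0.0379) and without sham replicate 3 (adjusted p = 0.0473). Over all 13 alternative fits, called or not, its adjusted p by edgeR, DESeq2 or limma ranged from 0.0130 to 0.184. For its partner Npc1 the means were 66.7 ± 5.52 CPM after I/R against 69.0 ± 2.82 CPM in the sham group (log2 fold change −0.05, edgeR adjusted p = 0.688). The count of Npc2 relative to Npc1 was 1.75, 1.59 and 1.47 after I/R against 0.936, 1.201 and 1.30 after sham surgery, without overlap. The nearest profiles were those of Coq8b (distance 0.113) and Slc31a2 (0.125).

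Ch25h (MGP_BALBcJ_G0025031, chr19:31717567-31718916) encodes cholesterol 25-hydroxylase. It had 655, 392 and 303 reads after I/R against 35, 23 and 16 after sham surgery. All I/R libraries were far above all sham libraries. The means were 10.6 ± 3.47 CPM after I/R against 0.643 ± 0.226 CPM in the sham group (SD, n = 3), and the fitted log2 difference was 4.03 (SE 0.34, adjusted p = 0.000344 by edgeR), which was 2.70 on the log2(FPKM + 1) scale. Gm26902 overlaps Ch25h on the other strand (chr19:31718589-31725890), and since use of strand in the counting is not stated, reads of the pair may not be fully told apart. Gm26902 had 87, 60 and 73 reads after I/R against 27, 49 and 26 after sham surgery. These were fewer than for Ch25h in every I/R library and in sham replicate 1, but more in sham replicates 2 and 3. Relative to Cyp7b1, which hydroxylates its product further, the Ch25h count was 0.702, 0.443 and 0.306 after I/R against 0.0309, 0.0226 and 0.0176 after sham surgery. The nearest profiles were those of Trib3 (distance 0.304) and Gbp2 (0.327).

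Of the efflux transporters, Abca1 rose and Abcg1 did not pass the test. Abca1 (MGP_BALBcJ_G0028278, chr4:49844173-49970288), which loads cholesterol and phospholipid onto lipid-poor apolipoproteins, had 5414, 3715 and 3900 reads after I/R against 2582, 2565 and 2330 after sham surgery. Every I/R library was above every sham library. The means were 103 ± 13.9 CPM after I/R against 65.7 ± 2.34 CPM in the sham group (SD, n = 3), and the fitted log2 difference was 0.65 (SE 0.11, adjusted p = 0.00274 by edgeR). Abcg1 (MGP_BALBcJ_G0023443, chr17:29893652-29952718), which exports cholesterol to mature lipoprotein particles, had 1400, 2029 and 2063 reads after I/R against 2464, 2440 and 2266 after sham surgery. In CPM every I/R library was below every sham library, whereas in deposited FPKM I/R replicate 3 (23.27) was above sham replicate 2 (23.16). In CPM I/R replicate 1 was 0.601 times the mean of the other 2 I/R libraries. That library also had the lowest neuron marker sum, 2024 CPM beside 3604 and 3926 CPM, whose part was not tested. The means were 44.4 ± 11.8 CPM after I/R against 63.0 ± 2.91 CPM in the sham group (SD, n = 3), and the fitted log2 difference of −0.51 (SE 0.19) missed the threshold (adjusted p = 0.0593 by edgeR).

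Abcg1 was called lower without I/R replicate 1 (log2 fold change −0.30, adjusted p = 0.00460), without I/R replicate 3 (−0.66, adjusted p = 0.0357) and with the DESeq2 Wald test (−0.52, adjusted p = 0.0302). Over all 13 alternative fits, called or not, its adjusted p by edgeR, DESeq2 or limma ranged from 0.00460 to 0.223. The fall of Abcg1 was smaller and not called with library size only (−0.26, edgeR adjusted p = 0.223). It was also not called with log2(FPKM + 1) (−0.28) and log2(FPKM + 0.1) (−0.29). The ratio of Abca1 to Abcg1 reads does not depend on library scaling. It was 3.87, 1.83 and 1.89 after I/R against 1.05, 1.05 and 1.03 after sham surgery, with no overlap (exact permutation p = 0.1, two-sided, the smallest possible, for each of the 6 pairs of genes examined). All 6 pairs, those of Msr1 and Cd36, Soat1 and Plin2, Npc2 and Npc1, Ch25h and Cyp7b1, and Plin2 and Plin3 included, were chosen after the values were seen. The nearest profiles to Abca1 were those of Pes1 (distance 0.084) and Rpl14 (0.096), and to Abcg1 those of Msra (0.098) and Enox2 (0.101).

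**Figure D2:**
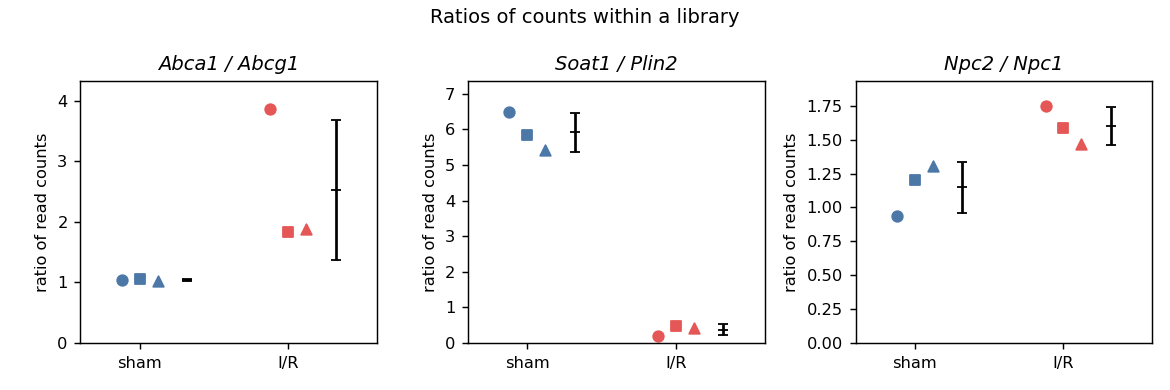
Ratios of read counts of gene pairs within each library (vertical axes starting at 0): Abca1 to Abcg1, Soat1 to Plin2 and Npc2 to Npc1, for 3 sham and 3 I/R libraries; symbols are replicates 1 (circle), 2 (square) and 3 (triangle) and bars are mean ± SD. The sham ratios of Abca1 to Abcg1 sit at 1.03 to 1.05 and the I/R ratios at 1.83 to 3.87, and in no panel do the groups overlap.

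**Figure D3:**
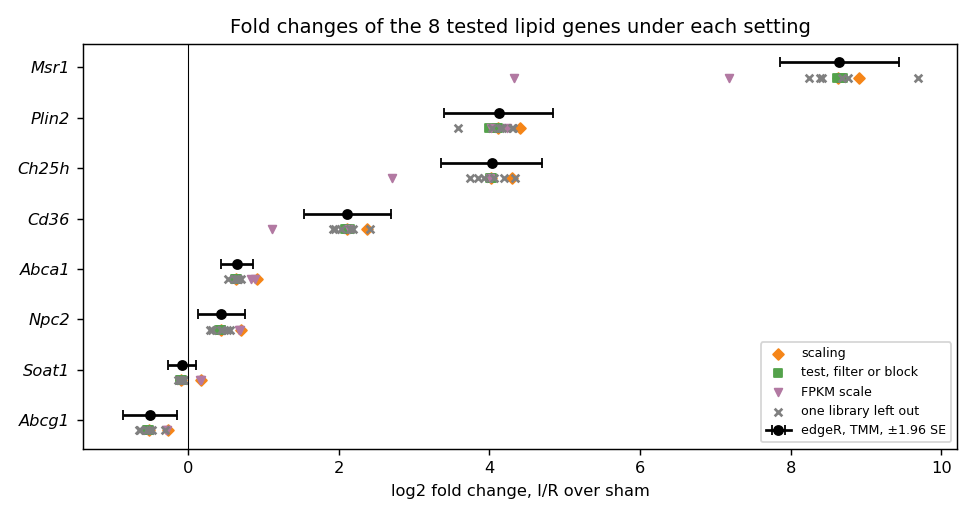
Log2 fold change of I/R over sham (horizontal axis) for the 8 tested lipid genes. Black points are the edgeR fit with approximate 95% intervals built from the SE. Coloured marks are the same gene under other scalings, tests, filters, FPKM scales or without 1 library. Msr1, Plin2, Ch25h, Cd36 and Abca1 stayed above 0 in all settings, Abcg1 stayed below 0, and Soat1 lay on both sides of it.

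Levels can be compared between genes only per length, as FPKM (fragments per kilobase of gene, scaled to library total, as deposited). In sham the order was Abcg1 (24.5 ± 1.28 FPKM), Npc2 (22.2 ± 3.74), Soat1 (13.4 ± 0.247), Abca1 (10.9 ± 0.458), Plin2 (5.34 ± 0.490), Ch25h (0.436 ± 0.155), Cd36 (0.383 ± 0.128), Msr1 (0.0406 ± 0.0388) and Olr1 (0.00693 ± 0.0120). The libraries of Abcg1 and Npc2, of Ch25h and Cd36, and of Msr1 and Olr1 overlapped. In I/R Plin2 came first (113 ± 66.3 FPKM), then Npc2 (36.2 ± 7.91), Abca1 (20.5 ± 3.75), Msr1 (20.5 ± 6.22), Abcg1 (20.4 ± 4.67), Soat1 (15.2 ± 1.57), Ch25h (8.65 ± 3.25), Cd36 (2.003 ± 0.473) and Olr1 (0.219 ± 0.114). Abca1, Msr1, Abcg1 and Soat1 overlapped each with the next. The order is not exact, because the gene length implied by the deposited FPKM was shorter than the length column for 7 of the 9 genes, for example 861 against 1888 bases for Plin2 and 2012 against 8319 for Soat1. With the length column, Soat1 in I/R was at 3.67 and stood below Ch25h at 8.65, Abca1 at 11.02 stood below Msr1 at 14.5 and Abcg1 at 13.3, and Plin2 was still first at 51.5. In sham the length column put Npc2 first at 22.2, above Abcg1 at 16.0, and Abca1 at 5.86 above Soat1 at 3.25.

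The other genes of lipid handling were counted in 9 lists of 111 genes, of which 104 were tested. Of these 26 rose and 26 fell, 50% in all, with a median log2 fold change of 0.04. Over all tested genes 41.8% were called, 21.8% higher and 19.9% lower. These shares are the background for the counts in each list below. Scaling by library size only moved the median of all genes from 0.03 to 0.28. It called 44 of the other lipid genes higher and 15 lower. The balance of rises and falls thus depended on the scaling. Sign and call stayed the same in every alternative fit for 5 of the 9 lipid genes. The same held for 25 of the 46 other named lipid genes.

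Scavenger receptors other than the 3 above had 6 of 12 higher and 0 lower, with a median of 1.005. Setting Marco to its lower bound, itself above that median, left the median the same. Cd163 and Mrc1, both among the receptors called higher, were also counted among the monocyte and macrophage markers above. Cxcl16, a receptor for oxidised lipids and a chemokine, went from 1.26 ± 0.390 to 11.7 ± 4.49 CPM (log2 fold change 3.21), and Cd68, a lysosomal glycoprotein of macrophages, from 7.66 ± 0.643 to 52.6 ± 19.5 CPM (2.78). Marco, a macrophage receptor, had 46, 10 and 18 reads after I/R and 0 in each sham library, at least 7.19-fold higher. Its fitted log2 fold change was 7.53, and it was 6.78 without I/R replicate 1 and 0.60 on the log2(FPKM + 1) scale. Of 10 genes of lipoprotein receptors 3 rose and 3 fell. Sort1 fell by 1.63 and Sorl1 by 1.17 on the log2 scale. Vldlr fell by 0.38 and lost its call without sham replicate 1 or 3 (edgeR adjusted p = 0.0610 and 0.0512) and with library size only (0.250).

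In fatty acid binding and transport 2 of 14 rose and 5 fell, with a median of −0.11. Fabp4, a fatty acid carrier of macrophages, adipocytes and endothelium, rose from 0.0520 ± 0.0437 to 1.84 ± 1.21 CPM (log2 fold change 5.05), and Fabp7, a carrier of glia, by 0.82 on the log2 scale. With 6 sham reads the size for Fabp4 was loose: the fitted value was 5.95 without sham replicate 1, 2.69 on the log2(FPKM + 0.1) scale and 0.77 on the log2(FPKM + 1) scale, and the ratio of pooled counts was 35.9 with an exact interval of 16.3 to 98.9. Acsl3 fell by 0.62, Fabp3 by 0.59 and Slc27a1 by 0.46 on the log2 scale, the last not called with library size only (adjusted p = 0.218). Lpl, lipoprotein lipase, had a log2 fold change of 0.56 and missed the threshold (edgeR adjusted p = 0.0614), but was called in 8 of 13 alternatives, among them without I/R replicate 1, 2 or 3 (adjusted p = 0.0353, 0.0453 and 0.0499). Among droplet proteins 2 of 13 tested rose and 1 fell. Hilpda, an inhibitor of triglyceride breakdown, rose by 0.84 and Plin4 by 0.63, while Dgat2, which makes triglyceride, fell by 0.60 on the log2 scale. Hilpda was not called without sham replicate 2 (adjusted p = 0.0566), and Plin4 without sham replicate 1 or 2 (0.0545 and 0.0661). The count of Plin2 relative to its relative Plin3 was 8.498, 4.09 and 4.63 after I/R against 0.286, 0.276 and 0.293 after sham surgery.

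Of 6 tested genes of triglyceride and cholesteryl ester hydrolysis 4 rose and 2 fell. The largest rise was that of Soat2, which was put in this list although it esterifies cholesterol, from 0.0703 ± 0.0528 to 2.66 ± 1.33 CPM (log2 fold change 5.19). With 8 sham reads its size was loose: the fitted value was 5.94 without sham replicate 1, 4.70 without I/R replicate 1 and 1.245 on the log2(FPKM + 1) scale, and the ratio of pooled counts was 38.9 with an exact interval of 19.5 to 90.8. Lipe, hormone-sensitive lipase, rose by 0.88 and Lipa, the lysosomal acid lipase, by 0.39. Mgll, which splits monoglyceride, fell by 0.77 and Nceh1, a cholesteryl ester hydrolase, by 0.71 on the log2 scale. The calls of Lipe, Lipa and Nceh1 were lost when single libraries were left out: Lipe without sham replicate 2 or 3 (adjusted p = 0.0719 and 0.0611), Nceh1 without sham replicate 1 (0.0516) and Lipa when any library other than I/R replicate 2 was left out (0.0403 to 0.124, the first with a fold under 1.2). Of 13 lysosomal cholesterol genes 2 rose and 3 fell. Lamp2, a lysosomal membrane protein, rose by 0.75, while Osbpl1a fell by 0.76, Psap by 0.65 and Gramd1b by 0.47 on the log2 scale. With library size only Gramd1b was at −0.22 (adjusted p = 0.0525).

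Efflux transporters and apolipoproteins had 2 of 14 tested higher and 6 lower, with a median of −0.18. Apoe, the main lipid carrier of brain and a product of astrocytes and microglia, fell from 2144 ± 119 to 1303 ± 29.2 CPM (log2 fold change −0.72, edgeR adjusted p = 0.00425). Abcg4, a relative of Abcg1, fell by 1.0 and Abca8a by 0.73 on the log2 scale, the latter not called on the FPKM scales (adjusted p = 0.0522). Apod rose from 175 ± 33.4 to 597 ± 85.1 CPM (1.77). Saa3, an acute-phase apolipoprotein, had 1511, 241 and 259 reads after I/R against 0, 1 and 1 after sham surgery, a ratio of 914 with an exact interval of 253 to 7554. Its fitted log2 fold change was 9.53, 8.23 without I/R replicate 1 and 4.52 on the log2(FPKM + 1) scale. Pltp fell by 0.78, but leaving out any library other than sham replicate 1 ended the call (adjusted p = 0.0591 to 0.0996), as did library size only (0.122). Of 7 astrocyte markers 1 (Aqp4, log2 fold change 0.52) rose and 5 fell, with sums of 5020 to 5290 CPM in sham and 2687 to 3411 CPM in I/R. Most of that sum was Slc1a2, at 3082 ± 132 CPM in sham and 1588 ± 378 CPM in I/R. The part of astrocytes in the level of Apoe was not tested.

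Of 7 tested genes of oxysterol metabolism 1 rose and 2 fell. Cyp46a1, the neuronal enzyme that makes 24-hydroxycholesterol, fell from 158 ± 12.1 to 73.2 ± 13.3 CPM (log2 fold change −1.11), beside the fall of the neuron markers. Gpr183, the receptor for a product of Ch25h and Cyp7b1, rose by 1.19, and Cyp11a1, which makes steroids from cholesterol, fell by 1.97 on the log2 scale (by 2.77 without I/R replicate 3). The call of Gpr183 was lost without I/R replicate 2 or sham replicate 1 or 3 (adjusted p = 0.0938, 0.116 and 0.122), and that of Cyp11a1 without I/R replicate 2 or any sham replicate (0.0766 to 0.0967). Among 15 nuclear receptors and sterol regulators 4 rose and 4 fell. Pparg rose from 1.14 ± 0.0651 to 3.60 ± 0.818 CPM (log2 fold change 1.66), Nr1h3 by 0.71 and Ppard by 0.59, while Ppara fell by 0.69, Ppargc1a by 0.59 and Srebf2 by 0.43 on the log2 scale. Nr1h2 (0.40, edgeR adjusted p = 0.0699) and Srebf1 (−0.25, 0.0600) missed the threshold, and Nr1h2 was called with library size only (0.0170).

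Several of these calls depended on single libraries. Nr1h3 was not called without I/R replicate 2 or sham replicate 1 or 3 (edgeR adjusted p = 0.0627, 0.0676 and 0.0858). Ppard and Ppargc1a were not called without sham replicate 1 or 3 (0.0626 and 0.0552 for Ppard, 0.0685 and 0.0737 for Ppargc1a). Ppara was not called without I/R replicate 2 or 3 or sham replicate 2 or 3 (0.0549 to 0.0906). With library size only Ppara, Ppargc1a and Srebf2 were not called (0.136, 0.0850 and 0.186).

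**Figure D4:**
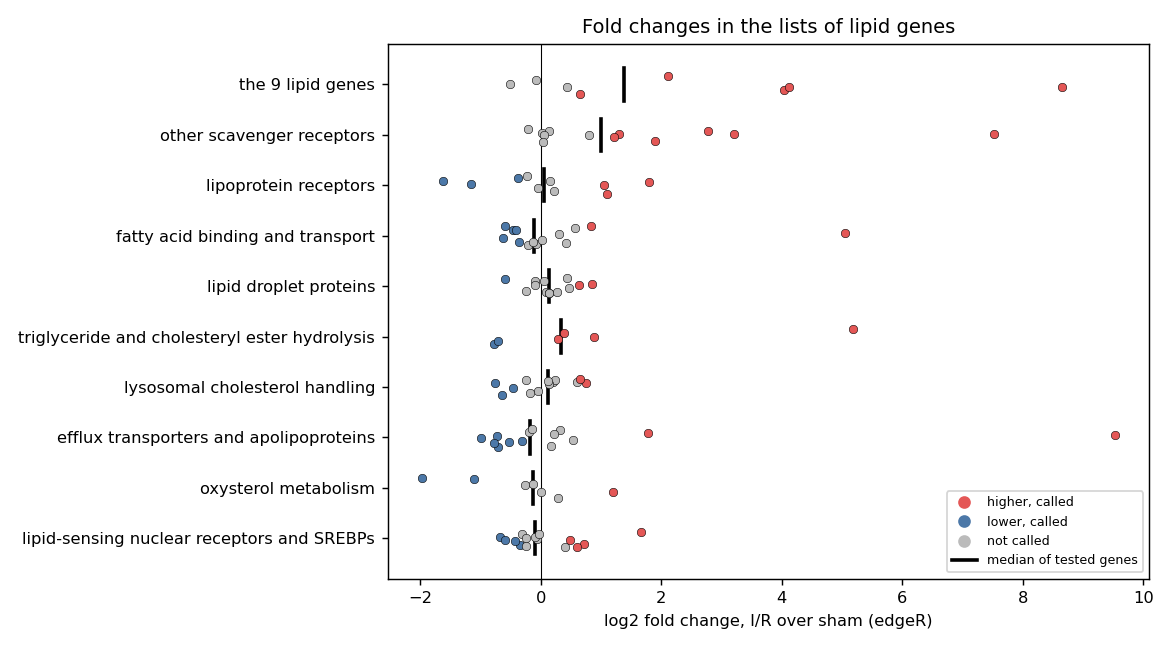
Log2 fold change of I/R over sham (horizontal axis, edgeR) of each tested gene in the 9 lipid genes and in 9 further lists of lipid genes (rows); red is called higher, blue called lower, grey not called, and the black bar is the median of the tested genes. The median was 1.38 for the 9 lipid genes (8 tested) and 1.005 for other scavenger receptors, and the medians of the other 8 lists lay from −0.18 to 0.34.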

How the data were processed

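RNA-seq of 3 I/R and 3 sham libraries was analysed from 1 deposited table. The authors aligned reads with TopHat2 and counted them per gene with HTSeq, and the deposited counts are raw. The authors also deposited FPKM, counts divided by gene length and library total. Identifiers are those of Ensembl's BALB/cJ annotation, while the mice are C57BL/6, and the submitters' processing notes also name Bowtie 0.12.2 and mm8 without saying what for. Strand use and treatment of multi-mapping reads are not given in the sources used here. Columns of the authors' own comparison (fold changes, p-values) were not used. The table's 41390 lines held 41386 genes after 4 split lines were rejoined, and 0 value columns belonged to no sample.

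I/R was tested against sham on the counts by edgeR 4.0.16 under R 4.3.3 (filterByExpr, TMM, robust quasi-likelihood F-test, no covariates, Benjamini-Hochberg over 18569 genes), after a check on simulated data. The SE is the absolute log2 fold change divided by the square root of F. Exact intervals of pooled count ratios cover counting error only. Intervals of fitted log2 fold changes are built from the SE, which includes the spread between libraries. They use the normal distribution, so they are approximate and narrower than the F-test with few libraries would give. A floor of 3 counts was used, since PCR copies are not told apart. Alternatives were DESeq2 1.42.0, other scalings and filters, limma 3.58.1 on log2(FPKM + 1) and log2(FPKM + 0.1), a replicate block, and leaving out each library.

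The genes and the lists were chosen with earlier results of these data known. All 9 genes are named, with up to 3 called genes that rose most and 3 that fell most in each further list, and Nr1h2, Nr1h3, Pparg, Srebf1, Apoe, Npc1, Lpl and Soat2 whatever their result. Some genes that this rule names are not reported here. Nearest profiles are by Euclidean distance of log2(CPM + 0.5), centred on sham, over 6 libraries, among genes of at least 1 CPM. Ly6c2 was not analysed here, nor were protein sequences.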

Additional observations from a re-analysis of the deposited data

How the results depend on the processing

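With a fold change over 2 in place of 1.2, 2760 of all tested genes and 20 other lipid genes (15 higher, 5 lower) were called. Msr1, Plin2, Ch25h, Cd36 and Abca1 were called higher in all 13 other fits. Log2 fold changes turned positive with library size only, log2(FPKM + 1) and log2(FPKM + 0.1) for Soat1 (0.18, 0.16 and 0.17), Npc1 (0.21, 0.19 and 0.20) and Srebf1 (0.006, 0.007 and 0.008), and none of these was called. Scaling by library size only called 59 other lipid genes, 74.6% of them higher, against 50% with TMM. Leaving out 1 library gave 5330 to 7976 called genes in all, 5 to 7 of the lipid genes and 38 to 55 of the other lipid genes. Libraries of the same replicate number did not deviate together (correlations of −0.0967, 0.0556 and −0.184). Deviations from means of only 3 libraries cannot exclude that the numbers pair the samples. A replicate block gave 6332 called genes in all, 5 of the lipid genes and 48 of the other lipid genes, and among the named genes it ended the calls of Lipa, Pltp and Ppara (adjusted p = 0.0680, 0.0676 and 0.0732) and added Lpl (0.0335). With 13 sham reads for Msr1 and 1 for Olr1, depth limits the size of their folds more than their direction.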

Other observations

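Gene Ontology terms in the deposited table place the 9 lipid genes among wider groups, which were looked up after the values were seen. Of the genes annotated to lipid storage, 49 were tested, of which 19 rose and 10 fell, 59.2% in all, with a median log2 fold change of 0.29, and 5 of the 9 lipid genes carry that term. Macrophage derived foam cell differentiation had 15 tested genes, 7 higher and 2 lower (60% called), with a median of 0.56, and counted Abcg1, Soat1, Cd36 and Msr1 among its members. Lipid transport had 198 tested genes, 51 higher and 44 lower (48.0% called), cholesterol metabolic process had 78, 21 higher and 12 lower (42.3%), and cholesterol efflux, which holds Abca1, Abcg1, Soat1 and Npc2, had 26, 6 higher and 4 lower (38.5%), beside 41.8% of all tested genes.

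Choroid plexus markers summed to between 33.7 and 3631 CPM in the I/R libraries and between 36.8 and 4455 CPM in the sham libraries, with I/R replicate 3 and sham replicate 1 low. None of the 8 was called by edgeR, but their SEs were wide (0.771 for Kl to 1.839 for Ttr), so equal content is not shown. In those low I/R and sham libraries Npc2 (91.4 and 65.8 CPM) and Pltp (17.8 and 29.3 CPM) were also lowest of their group. In I/R both were highest in replicate 1 (127.5 and 28.4 CPM), whereas the marker sum was highest in replicate 2. The part of choroid plexus in these levels was not tested.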
